A study of Mus musculus with 28 samples.

Results

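Double-positive CD8+ T cells, which carry both checkpoint receptors Tim-3 and PD-1 on their surface, were compared with double-negative cells, which carry neither, after both receptors had been blocked in the tumour-bearing host. The comparison rests on 6 of the 28 samples of the series: the 3 libraries of Tim-3+PD-1+ cells (DP) and the 3 of Tim-3-PD-1- cells (DN) from mice that, per the labels, received blocking antibodies to PD-1 and Tim-3. They were chosen by their labels and not by any measured value. The same sort after isotype control antibodies, again 3 DP and 3 DN libraries, served as the reference for how far the cells stood apart without blockade. Every mouse was wild type, of strain C57BL/6, and bore MC38-OVA, a mouse colon carcinoma line that makes ovalbumin. The tumour-infiltrating lymphocytes (TILs) were sorted on day 12 after implantation, and lysates of about 2000 cells went into an adapted SMART-Seq2 protocol, which copies whole transcripts. Antibody doses and the age of the mice are not given in the sources used here. The blockade libraries carry the numbers 7, 8 and 9 in their names and the isotype libraries 1, 2 and 3, and values below are given in that order. Nothing in the labels says which libraries came from separate mice, so the spread behind each p-value is that between libraries and may be technical.

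PD-1 (gene Pdcd1) and Tim-3 (gene Havcr2) are inhibitory receptors that T cells put on their surface when antigen keeps stimulating them. CD8+ TILs that carry both are known as the most differentiated cells of the tumour: they kill and divide, but over time lose the capacity to make cytokines and to renew themselves, a state called exhaustion or dysfunction. TILs that carry neither are a mixture of cells that never met tumour antigen, memory cells and recently activated cells, many of which keep the transcription factor TCF-1 (gene Tcf7) and receptors for lymph node entry and survival. Antibodies to PD-1 and Tim-3 block the receptors and do not delete their genes.

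The 6 libraries held 8005823 to 9958977 counts in DN and 10875537 to 13579278 in DP. Ribosomal RNA precursor (Rn45s) made up 17.7 to 18.8% of DN counts and 11.4 to 15.0% of DP counts, and 15705 to 16162 genes had a count in DN against 14825 to 15364 in DP. All 9 core T cell markers in the table (among them Cd3e, Cd8a and Cd8b1) were detected in every group, with a summed level of 3349.9 to 4174 CPM (counts scaled to the same total in every library) in DN and 5123 to 5646 in DP. Markers of other cells were present too, and the 19 markers of plasmacytoid dendritic cells, which make type I interferon, summed to 2041 to 3048 CPM in DN and 1302 to 1593 in DP. Among the isotype libraries DN library 2 stood apart from the other DN libraries, and values that rest on it are also given without it. In bulk RNA, fewer cells of a type and less RNA per cell cannot be told apart.

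The genes of both sorted proteins remained far apart between DP and DN after blockade. Pdcd1 read 127, 136 and 58.6 CPM in the DN libraries and 622, 596 and 628 CPM in the DP libraries. DP therefore stood 5.75-fold above DN (log2 fold change 2.52 ± 0.25, SE, adjusted p = 2.86e-05 by edgeR's quasi-likelihood test). Havcr2 read 21.6, 36.4 and 18 CPM in DN and 391, 306 and 249 CPM in DP, a log2 fold change of 3.63 ± 0.30 (adjusted p = 6.71e-06). The groups did not overlap for either gene. Under isotype both gaps were wider, at 4.06 for Pdcd1 and 6.15 for Havcr2, although the difference between the gaps did not pass edgeR's test (adjusted p = 0.261 and 0.192). Havcr2 had a mean of 3.91 ± 2.10 CPM (SD, n = 3) in isotype DN and 25.4 ± 9.76 CPM in blockade DN, whereas DP read 274 ± 25.6 and 316 ± 71.4 CPM. Pdcd1 had means of 33.2 ± 7.53 and 107 ± 42.3 CPM in isotype and blockade DN.

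**Figure D1:**
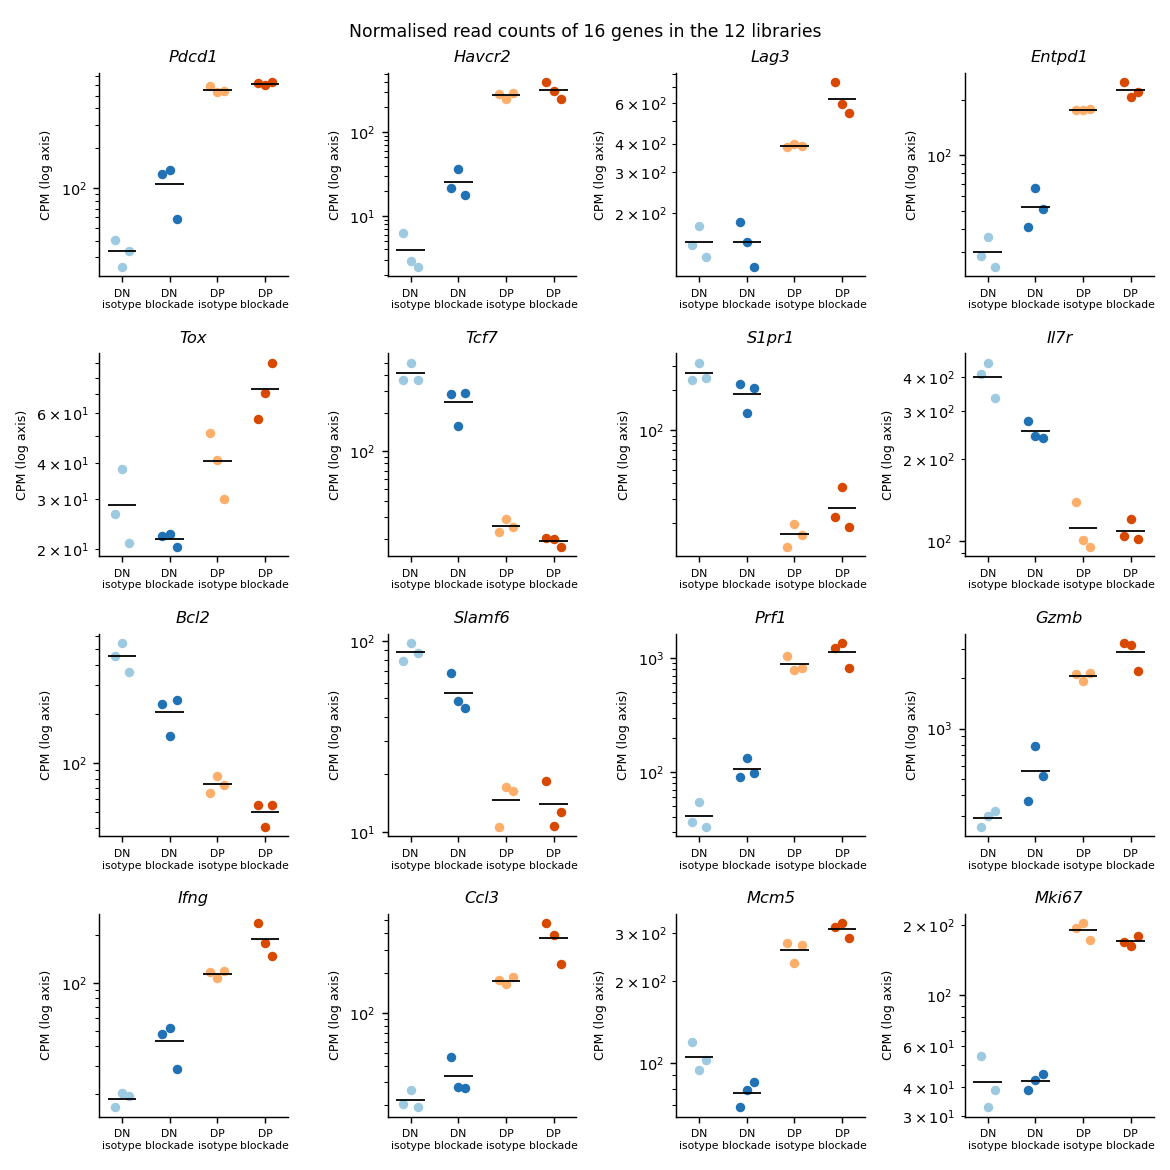
CPM (log axis) of 16 genes in the 12 libraries. Points are libraries and the black line is the mean of 3. DP lay above DN under blockade in all libraries for Pdcd1, Havcr2, Lag3, Entpd1, Tox, Prf1, Gzmb, Ifng, Ccl3, Mcm5 and Mki67, and below it for Tcf7, S1pr1, Il7r, Bcl2 and Slamf6.

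The separation extended through the transcriptome. Of 12710 genes tested, 3426 passed an adjusted p of 0.05 between DP and DN under blockade (27% of those tested), with 1836 higher in DP (14.4%) and 1590 lower (12.5%). Under isotype the same test called 3794 genes (29.9%). The 3 DP and the 3 DN blockade libraries did not overlap at 44.4% of all genes tested, so that non-overlap of a single gene is common here. Many gaps were large: 627 genes were called at more than 2-fold higher in DP and 773 at more than 2-fold lower, and 46 and 101 lay more than 16-fold apart. The isotype libraries had more genes at the extremes, with 106 called more than 16-fold higher and 163 more than 16-fold lower.

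Most of the distance measured under isotype was also present under blockade, in independent libraries. The gaps under both treatments were called in the same direction at 2446 genes, which is 71.4% of the blockade calls and 64.5% of the isotype calls, and in opposite directions at 2. Of the 978 genes called under blockade alone, 908 had the same sign under isotype. Over all genes tested, the line through the gaps (total least squares, log2 fold change under blockade against isotype) had a slope of 0.856, with a Pearson r of 0.776 and a Spearman rho of 0.692 across genes, which are not independent replicates. Leaving out single libraries moved this slope between 0.752 and 0.926, and it was 0.835 without DN isotype library 2. The median absolute log2 fold change over all genes tested was 0.381 under blockade and 0.380 under isotype. A slope below 1 thus does not mean that the gap of a typical gene was smaller. The part of unequal spread between libraries in the slope was not tested.

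**Figure D2:**
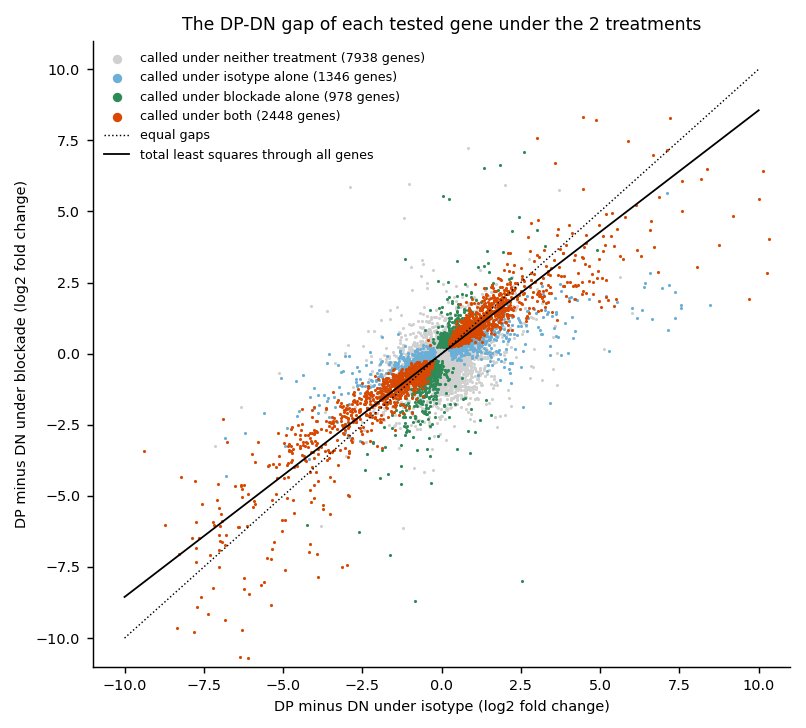
Log2 fold change of DP against DN under isotype (x axis) and under blockade (y axis) for each of the 12710 genes tested, with 3 genes outside the axes. Genes called in both comparisons are orange; the solid line, with a slope of 0.856, is flatter than the dotted line of equal gaps.

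The same distance can be read per library. An axis was built from the 5526 genes called for the mean of both gaps, a choice that gives both treatments equal weight. The position of a library is the mean log2 CPM of the 2789 DP-high genes minus that of the 2737 DN-high genes. These genes were chosen in the same libraries, so a DP-DN separation on the axis follows from the choice. The choice may still raise the gap of one treatment more than that of the other. DN libraries lay at -0.407, -0.733 and -0.275 under isotype and at -0.209, 0.140 and -0.003 under blockade. DP libraries lay at 1.72, 1.63 and 1.58 under isotype and at 1.81, 1.85 and 1.79 under blockade. All 3 blockade libraries thus lay further toward the DP side than all 3 isotype libraries within each sort, by 0.448 between the DN means and by 0.175 between the DP means. The DP-DN gap on this axis was 2.12 under isotype and 1.84 under blockade, which is 87.1% of it (91.6% without DN isotype library 2). An axis of genes chosen under isotype gave 74.4% and one chosen under blockade 99.98%, since each choice of genes raises the gap of the libraries it was made on. Between single libraries, the root mean square difference in log2 CPM over all genes tested was 1.01 to 1.12 for the 9 DP-DN pairs under blockade (median 1.07) and 1.07 to 1.44 under isotype (median 1.17). The 3 widest isotype pairs all involved DN library 2 (1.34 to 1.44), and the other 6 pairs lay at 1.07 to 1.17 (median 1.15). Within a sort, the DN isotype libraries differed from each other by 0.660 to 1.01, the DN blockade libraries by 0.677 to 0.783 and the DP blockade libraries by 0.560 to 0.579.

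**Figure D3:**
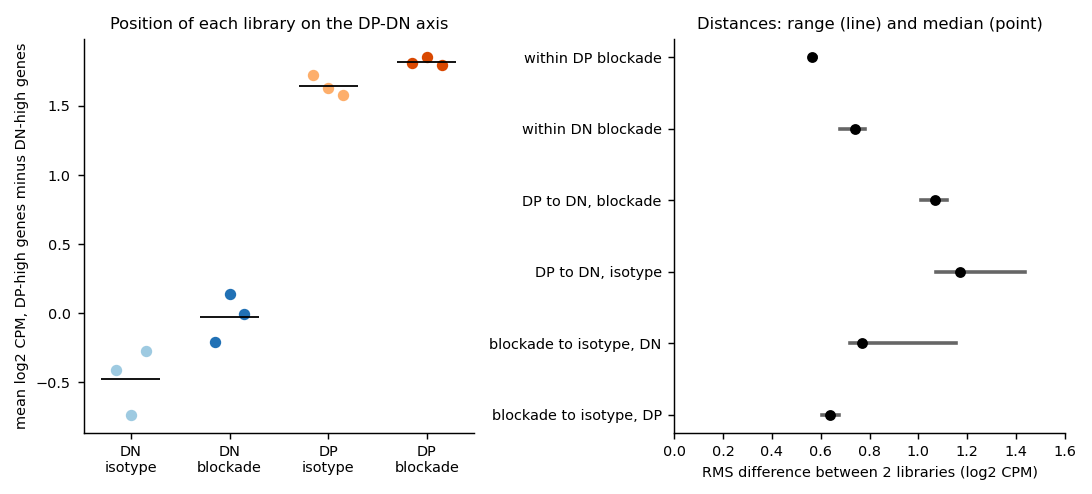
Left, position of the 12 libraries on the axis of genes called for the mean of both gaps (log2 CPM units, line at the mean of 3). Right, range and median of the root mean square difference between 2 libraries: the DP-DN pairs under blockade (1.01 to 1.12) lay above the blockade pairs within DN (0.677 to 0.783) and within DP (0.560 to 0.579).

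Co-inhibitory receptors formed one side of the remaining distance. Of 17 tested members of the list, 11 were higher in DP under blockade and 2 lower, with a median log2 fold change of 1.11 against -0.04 over all genes tested. Lag3, a receptor for MHC class II that restrains T cells, read 183, 150.1 and 117 CPM in DN and 736, 595 and 545 CPM in DP (log2 fold change 2.06 ± 0.17, adjusted p = 6.26e-06). Entpd1, which encodes the ATP-degrading enzyme CD39, read 40.7, 66.3 and 51.5 CPM in DN and 248, 207 and 222 CPM in DP (2.09 ± 0.17, adjusted p = 6.26e-06). Tigit, a receptor that competes for ligands with a co-stimulatory partner, had a smaller gap of 1.15 ± 0.22 (adjusted p = 0.00199). Both list members that were lower in DP were Btla (-2.28) and Nt5e (-1.45), the latter encoding the AMP-degrading enzyme CD73.

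Of 15 co-stimulatory receptors and ligands, 4 were higher and 1 lower, a share of 33.3% near the 27% over all genes tested. Under isotype, where 29.9% of all genes tested were called, 9 were higher and 2 lower. The median log2 fold change was 0.86 under isotype beside 0.42 under blockade. Tnfrsf9, which encodes the activation-induced receptor 4-1BB, read 55.8, 40.7 and 54.2 CPM in DN and 739, 579 and 419.6 CPM in DP, with no overlap (3.53 ± 0.25, adjusted p = 3.38e-06). Tnfrsf4 (OX40) and its ligand gene Tnfsf4 were higher by 2.37 and 3.59 on the log2 scale, the ligand from low levels. Tnfsf8, the ligand gene of CD30, was lower at -2.38. Icos (0.44) and Cd28 (0.06) did not pass the test.

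Among transcription factors linked to dysfunction, 10 of 19 were higher in DP and none lower, with a median of 0.49. Tox, which sets up the chromatin state of exhausted T cells, read 22.3, 22.7 and 20.3 CPM in DN and 57.5, 70.9 and 90.5 CPM in DP under blockade (1.74 ± 0.24, adjusted p = 0.000257). Under isotype its libraries read 26.5, 38.1 and 21 CPM in DN and 51, 41.3 and 30.1 CPM in DP, overlapping, with a log2 fold change of 0.51 that did not pass (adjusted p = 0.124). The difference between both Tox gaps did not pass edgeR's test (adjusted p = 0.309). Nr4a2, a nuclear receptor induced by T cell receptor signals, was higher by 1.46, Rbpj, the DNA-binding partner of Notch, by 1.34, and Bhlhe40 by 1.01. Prdm1 (Blimp-1, a driver of effector differentiation) and Id2, a factor of effector cells, were higher by 1.08 and 0.99. Of the T-box pair, Tbx21 was higher by 0.61 (adjusted p = 0.00869), whereas Eomes read 18.3, 17.3 and 36 CPM in DN and 16.5, 22.8 and 19.5 CPM in DP and overlapped (-0.29 ± 0.24, adjusted p = 0.414); without DN library 9 the Eomes value was 0.14.

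Genes of naive, stem-like and recirculating T cells formed the other side. In the naive and homing list, 18 of 22 members were lower in DP, none higher, with a median of -1.57 (-2.39 under isotype). Tcf7 read 283, 159 and 289.7 CPM in DN and 20.3, 19.9 and 17.3 CPM in DP. That is a 12.7-fold difference after blockade (log2 fold change -3.67 ± 0.23, adjusted p = 1.53e-06) beside 16.1-fold under isotype. S1pr1, the receptor that guides T cells out of tissue, read 220.4, 133 and 205 CPM in DN and 22.3, 37 and 18.6 CPM in DP (-2.84 ± 0.27, adjusted p = 1.66e-05).

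Other members of the naive and stem-like lists followed with smaller gaps. Lef1, the partner of TCF-1, had a log2 fold change of -1.66 ± 0.22 (adjusted p = 0.000183), and Id3, which opposes Id2 in memory formation, one of -2.63 ± 0.23 (adjusted p = 9.82e-06). The survival genes Il7r (interleukin-7 receptor) and Bcl2 stood at -1.22 and -2.05. Slamf6, a surface marker of stem-like TILs, read 67.7, 48.7 and 44.3 CPM in DN and 18.6, 10.8 and 12.7 CPM in DP (-1.93 ± 0.24, adjusted p = 0.000107). Ccr7, the chemokine receptor for lymph node entry, was uneven among the DN libraries, at 295, 144 and 409 CPM, against 113, 128 and 114 CPM in DP; its call (adjusted p = 0.0133) was lost without DN library 9 (0.0629) and without DP library 7 (0.0505). In the stem-like and memory list as a whole, 10 of 18 were lower and 2 higher, the latter Kit (1.71) and Xcl1 (0.96), a chemokine for cross-presenting dendritic cells.

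Killing machinery was higher in DP. Of 24 cytotoxic effector genes, 16 were higher and 1 lower, with a median of 1.10. Prf1, whose product perforin opens the target cell membrane, read 90.5, 132 and 98.5 CPM in DN and 1238, 1363 and 819 CPM in DP, a 10.6-fold difference (log2 fold change 3.41 ± 0.24, adjusted p = 3.38e-06). Gzmb, the main death-inducing granzyme, read 371, 793 and 520.0 CPM in DN and 3253, 3140.5 and 2199 CPM in DP (2.35 ± 0.23, adjusted p = 2.54e-05). The neighbouring granzyme genes Gzme and Gzmf went furthest: Gzmf read 14.4, 2.28 and 4.55 CPM in DN and 1198, 805 and 362 CPM in DP (6.85 ± 0.67, adjusted p = 5.75e-05). In isotype DN no library had a Gzmf count. These granzymes are close copies, and how the reads were divided among them is uncertain. The single lower member was Gzmm (-2.16), and Gzma (0.61) and Gzmk (0.15) did not pass.

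Cytokine and chemokine genes were mostly higher too, 11 of 19 against 2 lower. Ifng, which encodes interferon gamma, read 47.8, 52.2 and 28.7 CPM in DN and 238, 179 and 147 CPM in DP (2.13 ± 0.21, adjusted p = 2.61e-05). Ccl3, a chemokine for macrophages and T cells, read 46.4, 27.4 and 27 CPM in DN and 479, 391 and 233 CPM in DP (3.46 ± 0.27, adjusted p = 4.88e-06). Penk, the proenkephalin gene, and Ccl1 reached DP means of 45.6 and 26.5 CPM against 0.795 and 1.66 CPM in DN. Il2, the growth factor of T cells, was lower at -2.86, and Tnf was higher at 0.67.

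Receptors for these signals moved both ways. Of 15 chemokine receptors, 7 were higher, among them Ccr8 (2.04), Ccr1 (2.01) and Cxcr6 (1.32), and 6 lower, among them Cxcr4 (-2.02), Cxcr5 (-3.57) and Cxcr3 (-0.97). Of 23 cytokine receptors and feedback genes, 7 were higher and 9 lower. Il2ra, the high-affinity chain of the interleukin-2 receptor, read 10.8, 11.7 and 9.20 CPM in DN and 115, 68.3 and 56.7 CPM in DP (2.92 ± 0.33, adjusted p = 6.08e-05), and Il2rb was higher by 0.91. Il6ra (-1.98), Socs3 (-1.52) and the interferon gamma receptor chain Ifngr2 (-1.35) were lower.

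T cell receptor signalling genes were higher in DP at 13 of 28 and lower at 2. The gene with the smallest adjusted p of all those higher in DP, Ubash3b, belongs here. It encodes a phosphatase that dampens signalling from the receptor, and it read 23, 22.7 and 22.7 CPM in DN and 97.9, 81.9 and 86.1 CPM in DP (1.96 ± 0.11, adjusted p = 1.11e-06). The kinase gene Zap70 was higher by 0.87 and the phosphatase gene Dusp4 by 1.52. Immediate early genes, which respond within minutes to stimulation and to handling, were called at 5 of 20 (25%), near the 27% over all genes tested: 2 were higher, 3 lower, and their median was -0.12. Under isotype 5 were higher and 6 lower, where 29.9% of all genes tested were called. Rgs16, a brake on chemokine receptor signalling in the tissue residency list, read 103, 108 and 59.3 CPM in DN and 1448, 964 and 1017 CPM in DP (3.67 ± 0.31, adjusted p = 7.88e-06). It had the largest rise on a list that was split, with 6 of 18 members higher in DP and 5 lower (61.1% called, median -0.23).

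**Figure D4:**
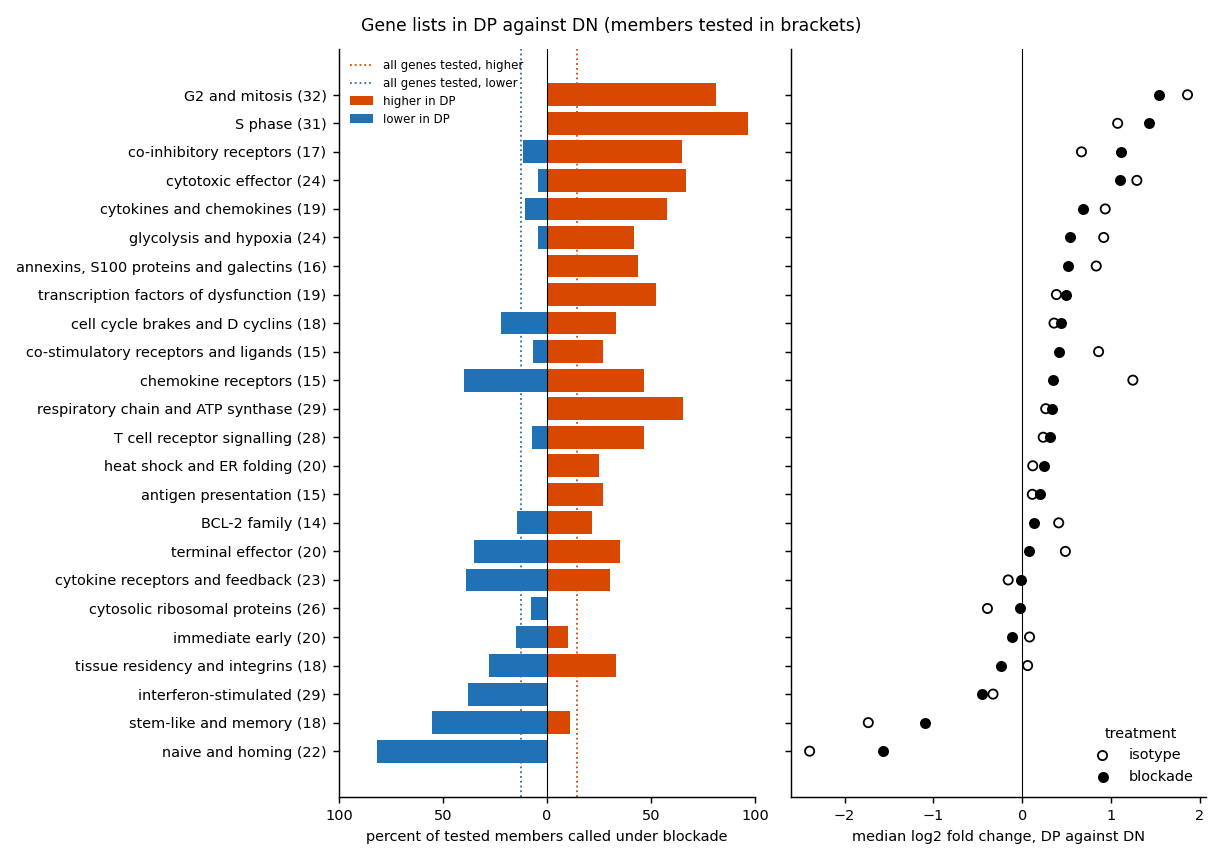
Left, percent of the tested members of each gene list called higher (orange) or lower (blue) in DP under blockade, with dotted lines at the share over all genes tested (14.4% and 12.5%). Right, the median log2 fold change of each list under isotype (open) and blockade (filled): naive and homing genes had medians of -2.39 and -1.57, S phase genes 1.07 and 1.43.

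Of the T cell and process lists, those of cell division had the largest shares of members higher in DP under blockade. Of 31 S phase genes, 30 were higher in DP and none lower, with a median of 1.43 (1.07 under isotype). Of 32 genes of G2 and mitosis, 26 were higher and none lower, with a median of 1.54 (1.86 under isotype, 1.47 without DN isotype library 2). Mcm5, a subunit of the helicase that opens DNA for replication, read 68.6, 79.2 and 84.9 CPM in DN and 314, 327 and 287 CPM in DP (1.99 ± 0.12, adjusted p = 1.32e-06). Mki67, the marker of dividing cells, read 39.1, 43.1 and 45.8 CPM in DN and 169, 162 and 179.6 CPM in DP (2.00 ± 0.16, adjusted p = 5.13e-06). Within each sort the libraries of both genes lay close together and the sorts were far apart. Asf1b, a histone chaperone at the replication fork, and Chtf18, part of an alternative clamp loader, were among the 10 genes with the smallest p of those higher in DP (2.35 and 1.83). Of 18 tested brakes, D cyclins and other cell cycle regulators, 6 were higher, among them Cdk6 (1.14), E2f2 (1.01) and the brake gene Rbl2 (0.75). Another 4 were lower, among them the inhibitor gene Cdkn1b (-0.82).

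Promoters of division genes and granzymes are shown because the division lists had the largest shares of members higher in DP and most windows with RUNX letters on the cytotoxic list were those of granzymes. The 5 are the called members with the smallest p whose 250 upstream bases hold the CHR letters (mitosis list), the E2F letters (S phase list) or the RUNX letters (cytotoxic list). Sequences are from RefSeq on GRCm38.p6, 250 bases up to the transcription start, 5′ to 3′ on the strand of the gene. Capitals mark the CCAAT box (CCAAT) and CHR element (TTTGAA), which are known from promoters of mitotic genes, the E2F core (GGCGGGAA) of S phase genes, and the RUNX site (TGTGGTT), each on either strand.
Mki67 (chr7:135716380-135716629, minus strand): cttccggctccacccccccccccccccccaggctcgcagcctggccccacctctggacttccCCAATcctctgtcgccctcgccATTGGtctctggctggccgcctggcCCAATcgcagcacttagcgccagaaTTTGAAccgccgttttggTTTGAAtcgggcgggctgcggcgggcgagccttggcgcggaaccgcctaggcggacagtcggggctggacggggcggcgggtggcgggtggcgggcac
Kif11 (chr19:37376132-37376381, plus strand): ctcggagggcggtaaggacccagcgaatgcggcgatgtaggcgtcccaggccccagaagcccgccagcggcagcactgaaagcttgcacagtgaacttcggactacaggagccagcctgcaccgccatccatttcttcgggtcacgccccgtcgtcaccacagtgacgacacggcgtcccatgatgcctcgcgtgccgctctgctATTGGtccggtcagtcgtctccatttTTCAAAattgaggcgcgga
Chaf1a (chr17:56040166-56040415, plus strand): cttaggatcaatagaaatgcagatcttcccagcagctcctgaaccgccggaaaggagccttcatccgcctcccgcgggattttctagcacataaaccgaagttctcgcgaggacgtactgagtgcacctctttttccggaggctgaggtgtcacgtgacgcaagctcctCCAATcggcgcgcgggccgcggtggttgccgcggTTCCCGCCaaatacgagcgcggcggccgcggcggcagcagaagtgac
Gzmb (chr14:56262335-56262584, minus strand): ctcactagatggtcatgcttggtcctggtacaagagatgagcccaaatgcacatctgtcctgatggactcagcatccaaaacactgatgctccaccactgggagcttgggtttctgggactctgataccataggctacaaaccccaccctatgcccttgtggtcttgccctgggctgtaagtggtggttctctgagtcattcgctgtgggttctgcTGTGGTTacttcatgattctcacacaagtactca
Gzme (chr14:56120626-56120875, minus strand): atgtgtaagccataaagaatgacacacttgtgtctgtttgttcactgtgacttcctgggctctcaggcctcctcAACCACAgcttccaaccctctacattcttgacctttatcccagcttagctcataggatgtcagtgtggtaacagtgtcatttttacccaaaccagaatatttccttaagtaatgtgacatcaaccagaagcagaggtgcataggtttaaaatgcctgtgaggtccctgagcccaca

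Kif11, a motor protein gene of the mitotic spindle, was higher in DP by 2.12 ± 0.22 (adjusted p = 3.83e-05), and Chaf1a, a chaperone that loads histones on new DNA, by 2.18. The search covered windows of 250 bases before and 50 after the start for 8117 tested genes with 1 window each, of 10150 that matched the table. The CHR letters were in 20 of 28 windows of the mitosis list (71.4%), in 12.6% of all windows, in 18.4% of the windows of genes higher in DP and in 12.0% of those lower. The CCAAT letters were in 75% of mitosis and 68.2% of S phase windows, beside 40.2% of all. The E2F core was in 6 of 22 S phase windows (27.3%) beside 4.42% of all. The RUNX letters were in 8 of 20 cytotoxic windows (40%) beside 3.99% of all. Of those 8, 7 belong to granzymes, among them Gzmb, Gzmc, Gzmd, Gzme, Gzmf and Gzmg. Some of these genes are close copies, so their windows may not be independent matches. A TCF site (CTTTGAA), which contains the CHR letters, was in 3.77% of windows higher in DP and 3.84% of those lower. AP-1 (TGANTCA), KLF (GGGTGTGG) and ETS (ACCGGAAGT) letters were in 5.82%, 3.85% and 2.62% of windows higher in DP beside 5.01%, 3.92% and 2.45% of all. A match describes the sequence and says nothing of a factor's binding.

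Metabolic genes were moderately higher in DP. Of 24 glycolysis and hypoxia genes, 10 were higher and 1 lower, with a median of 0.54 (0.92 under isotype). Slc2a3, a glucose transporter, read 90.6, 127 and 81.2 CPM in DN and 351, 296 and 271 CPM in DP (1.62 ± 0.17, adjusted p = 4.13e-05), and the lactate exporter gene Slc16a3 was higher by 1.43. Of 29 genes of the respiratory chain and ATP synthase, 19 were higher and none lower, all by small amounts (median 0.33), with Cox5a at 0.80 ± 0.10 (adjusted p = 9.53e-05). Annexins, S100 proteins and galectins were higher at 7 of 16 and lower at none, among them Anxa2 (1.25 ± 0.18, adjusted p = 0.00035).

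Interferon-stimulated genes were lower in DP at 11 of 29 and higher at none, with a median of -0.46. Ifit3, an antiviral protein gene induced by type I interferon, read 395, 319 and 303 CPM in DN and 124, 146 and 203 CPM in DP (-1.11 ± 0.22, adjusted p = 0.00323). Irf7 and Bst2, lower in DP (-0.99 and -1.12), are also abundant in plasmacytoid dendritic cells, and Bst2 is in that marker list as well. Cytosolic ribosomal protein genes barely differed under blockade: 2 of 26 were lower, none higher, and the median was -0.03. Under isotype, where 29.9% of all genes tested were called, 22 of 26 were lower in DP and the median was -0.39. Both genes that were lower under blockade, Rpl12 (-0.39) and Rps24 (-0.32), lost their call in some alternatives (adjusted p up to 0.0659 and 0.136). Antigen presentation (4 of 15 higher, none lower, 26.7%) and heat shock and folding genes (5 of 20 higher, none lower, 25%) were called at shares near the 27% over all genes tested, and with upper quartile scaling each had 1 lower member. Of 14 tested BCL-2 family genes 3 were higher, 2 lower and 9 not called, a share of 35.7% beside 27% over all genes tested. Bcl2a1b and Bcl2a1d were among those higher (1.04 and 1.64), and Bcl2 and Mcl1 (-0.49) were lower.

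The extremes of the comparison differed in kind. Among genes higher in DP, the largest fold changes at 10 CPM or more belonged to Gzmf, Amd2, Gzme, Tff1 and Serpinb9b. Serpinb9b, of the family that shields killer cells from granzymes, read 13.2, 14 and 2.53 CPM in DN and 671, 932 and 476 CPM in DP (6.14 ± 0.58, adjusted p = 1.7e-05), and Serpine2, another protease inhibitor, read 6.33, 2.57 and 10.2 and 222, 212 and 283 CPM. Amd2 is a close copy of another decarboxylase gene and its call (adjusted p = 0.0315) was lost without any single blockade library (0.0515 to 0.0970). Arsb, a lysosomal sulfatase, had little spread, with 77.8, 93.6 and 98.2 CPM in DN and 329, 294 and 346 CPM in DP.

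Genes lower in DP were led by markers of plasmacytoid dendritic cells, and 5 of the 10 with the smallest p are in that list. Siglech, the surface lectin that defines these cells in mice, read 361, 243 and 214 CPM in DN and 0, 0.993 and 0.371 CPM in DP. Ccr9, a gut-homing chemokine receptor that these cells share with some T cells, read 305, 220.5 and 206 CPM in DN and 2.74, 4.12 and 1.85 CPM in DP, and Ly6d read 141, 69.9 and 65.2 and 0.157, 0.917 and 0.371 CPM. In DP these defining markers were near 0, and Cd300c had no count in any DP blockade library. Of the 19 markers, 16 were lower in DP, 1 higher (Lag3, which T cells express), and Runx2 and Irf8, also expressed by T cells, were not called. Lag3, Runx2, Irf8 and Bst2 made up most of the sum in DP. Mn1, Ptprf, Chdh and Mzb1 had no count in DP under blockade, which with a limit of 3 counts over the group makes them at least 245-fold, 239-fold, 129-fold and 124-fold lower.

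The isotype DN libraries held more of the same markers, 3024 to 4529 CPM in sum, and isotype DP 1012 to 1066. The part of these cells in the genes lower in DP was not tested. The B cell genes Blnk, Cd22 and Cd79b were lower in DP as well, and the other 4 of 7 tested members were not called. The B cell list summed to 54.3 to 80.0 CPM in DN and 5.19 to 8.22 in DP. Blnk alone made up most of the sum in DN, at 60.7, 48.2 and 32.4 CPM. Myeloid markers were higher in DP at 7 of 25 and lower at 2, a share of 36% called beside 27% over all genes tested. Cd14 was higher (11.1, 5.54 and 11.8 CPM in DN and 50.6, 52.5 and 25.5 in DP), whereas Tyrobp was lower (-2.20). The summed levels of the myeloid list overlapped, at 1186 to 1867 CPM in DN and 1548 to 2071 in DP. Foxp3, the factor of regulatory T cells, read 3.29, 3.27 and 1.82 and 30.8, 25.8 and 14.5 CPM in DN and DP (3.09 ± 0.62, adjusted p = 0.00314), and Cd4 read 83.8, 57.4 and 52.6 and 8.77, 8.63 and 5.01 CPM. Tumour and stroma genes were higher in DP at 2 of 17 and lower at 3 (29.4% called, beside 27% over all genes tested). They summed to 1306, 2542 and 3430 CPM in DN and 1426, 1985 and 1746 CPM in DP. Natural killer and gamma-delta T cell genes were lower at 2 of 10 and higher at none (20% called). They summed to 484, 322 and 492 CPM in DN and 428, 258 and 182 CPM in DP. The part of any of these cells in the results was not tested either.

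**Figure D5:**
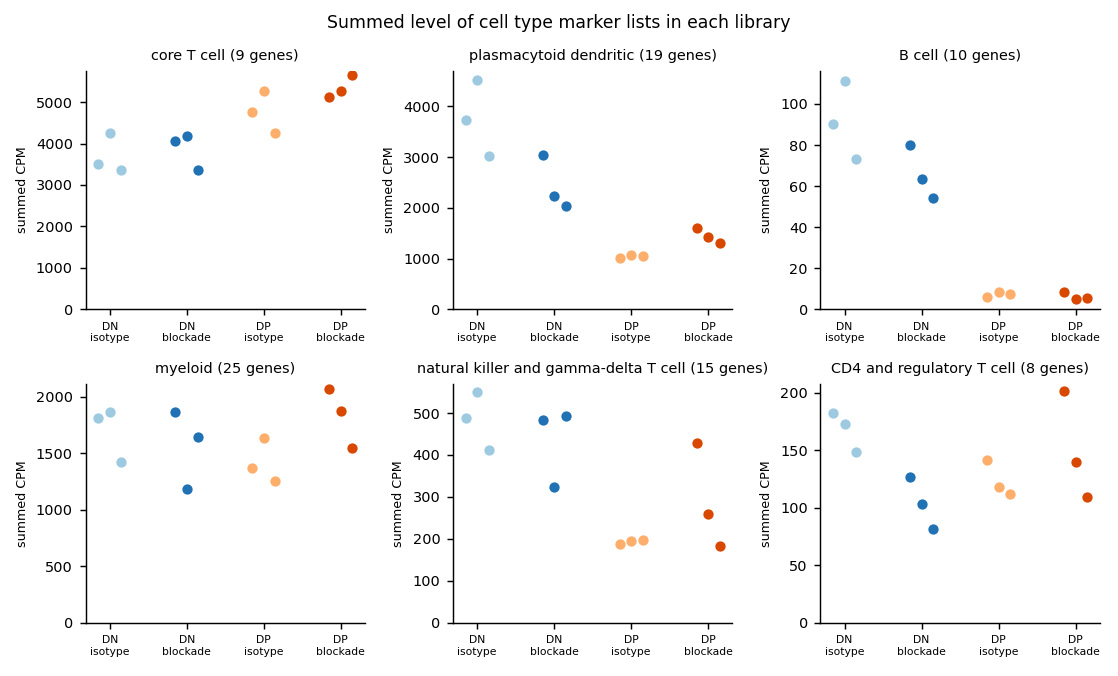
Summed CPM of marker lists in each of the 12 libraries (axes start at 0). The plasmacytoid dendritic list reached 2041 to 3048 CPM in DN under blockade against 1302 to 1593 in DP, and the core T cell list 3349.9 to 4174 against 5123 to 5646.

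Whether single genes had a different gap under blockade than under isotype was tested with the difference of both gaps. edgeR called none of 12710 genes at an adjusted p of 0.05 (smallest adjusted p = 0.152), with 1070 at an unadjusted p under 0.05 (8.42%); DESeq2 called 113, of which 79 were higher and 34 lower. Cd4 and Dusp10 were among the genes with the smallest p whose gap was shifted upward. Dusp10, a phosphatase that restrains stress kinases, went from -2.09 to -0.77 (difference 1.33 ± 0.21, unadjusted p = 3.5e-05, adjusted p = 0.152). Cd4 went from -5.79 to -3.10 (unadjusted p = 2.9e-05, adjusted p = 0.152).

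In the other direction the smallest p belonged to 4931406H21Rik, Havcr2 and Fcgr1. Havcr2 differed by -2.51 ± 0.44 (unadjusted p = 7.55e-05, adjusted p = 0.192, DESeq2 adjusted p = 1.2e-06), its isotype DN libraries at 6.32, 2.93 and 2.48 CPM all below the blockade DN libraries. Fcgr1, a myeloid receptor gene, had no count in isotype DN. The uncharacterised 4931406H21Rik had a gap of 1.52 under isotype and -0.25 under blockade. By DESeq2 alone the difference passed for Cd4 (adjusted p = 5.2e-08) and Dusp10 (8.04e-06) as well. It also passed for Pdcd1 (0.0035), Pltp (0.00772), Tnfrsf4 (0.0241), S1pr1 (0.041), Lef1 (0.0447) and Prf1 (0.0475), whose gaps were narrower under blockade. Of these, Pltp is on the plasmacytoid dendritic list. The difference passed for Gzmf too (DESeq2 adjusted p = 0.000776), which had no count in isotype DN. Also by DESeq2 alone, gaps were wider under blockade for Mcm7 (adjusted p = 0.0089), Mcm5 (0.0123), Mcm2 (0.0254) and Tox (0.0306). The folding gene Dnajb11 went from -0.12 to 0.57 (DESeq2 adjusted p = 0.0241). By edgeR the adjusted p of these differences was 0.261 to 0.309.

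The lists differed in the median difference of their gaps, a description without a test. Naive and homing genes had a median difference of 0.81, with 14 of 22 at an unadjusted p under 0.05, and ribosomal protein genes one of 0.39, with 23 of 26; over all genes tested 8.42% had such a p. S phase genes had a median difference of 0.34 with 7 of 31, and mitosis genes -0.31 with none of 32. In DN isotype library 2 mitosis genes summed to 466 CPM, beside 1320.3 and 1618 in the other isotype DN libraries. Tumour and stroma genes summed to 539 CPM in it, beside 1598 and 1946 in the others. The part of tumour cells in the mitosis values was not tested. Without DN isotype library 2, the median difference of mitosis genes was 0.05 with 2 of 32. S phase genes then had 0.43 with 15 of 31, naive and homing genes 0.67 with 12 of 22 and ribosomal protein genes 0.38 with 23 of 26, beside 8.07% of all genes tested. Red blood cell genes separated the treatments in both sorts, with summed levels of 1413 to 5345 CPM in the isotype libraries and 0.253 to 119.8 in the blockade libraries, and the part of blood in the shift between treatments was not tested.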

How the data were processed

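RNA of 12 libraries was analysed here: DP and DN cells after blockade, and the same sorts after isotype antibodies as reference. Per the submitters' processing notes, the tools were TopHat, RSEM and DESeq and the genome build mm9; versions, roles and order are not given in the sources used here. The table the authors deposited holds expected counts, which estimate the reads of each gene without scaling; 30.5% were fractional, and all were rounded. RSEM-type estimates divide reads among close copies, so such genes are uncertain. The counting of strand is not given, so overlapping genes cannot be told apart.

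Genes were filtered with filterByExpr and scaled by TMM. The test was edgeR 4.0.16's quasi-likelihood test (R 4.3.3) on group means of all 12 libraries, which share 1 estimate of the spread (biological coefficient of variation 0.229), with Benjamini-Hochberg adjustment over 12710 of 20603 genes at 0.05. CPM values use these scaled library sizes, and log2 CPM a prior count of 2. Depth was 8005823 to 13579278 counts per library, and where a group had no count, 3 counts in its summed libraries set the upper limit. Such limits cover counting error only. DESeq2 1.42.0, other scalings, no filter, thinning, a replicate block and leaving out libraries were tried. List values without DN isotype library 2 were added after seeing the data.

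Samples were grouped by their labels. Named genes were the sorted proteins, the 10 smallest p and 5 largest changes each way among called genes with non-overlapping groups and at least 10 CPM in the higher one, up to 4 called members of each of 32 lists, 19 genes of T cell states, and the 3 smallest p each way for the difference of gaps; list members beyond these were chosen after their values were seen. A gene that these rules name is not reported here. Members and lists were chosen with earlier results of these data known. Lists were described by counts and medians, without a set test. Promoter windows came from RefSeq (GRCm38.p6), matched by symbol, and no coordinates were taken from the count table. Single-cell and subset libraries were not used here.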

Additional observations from a re-analysis of the deposited data

How the results depend on the processing

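Between DP and DN, the number of genes called stayed within 1.5 times of 3426 under blockade and of 3794 under isotype in all alternatives run, with 2386 to 3812 and 2880 to 4041 when single libraries were left out. The share of blockade calls that were higher in DP was 53.6% with TMM and 47.3% with upper quartile scaling. For the difference of the gaps, where edgeR called 0 genes, DESeq2 called 113, the fit without a filter 7, and leaving out single libraries 0 to 3; the cause was not tested. The slope of 0.856 was 0.923 without a filter and 0.752 to 0.926 with single libraries left out, and the axis percent of 87.1 ranged from 80.4 to 92.4, an alternative chosen after seeing the data. Of 142 named genes, 133 kept direction and side of the threshold in all alternatives run. Eomes, not called at -0.29, ranged from -0.47 to 0.14 with single libraries left out and was above 0 without DN blockade replicate 9.

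Whether replicate numbers pair the sorts is uncertain, and the main fit used no block. By the number in the library name, deviations of same-numbered DP and DN libraries correlated at 0.152, 0.0822 and 0.0612 under blockade. Under isotype they correlated at -0.00600, 0.268 and 0.326. Differently numbered libraries correlated at -0.123 to 0.0424 under blockade and at -0.334 to 0.0946 under isotype. Same-numbered pairs thus stood above these, except for library 1 under isotype. A shared mouse was not tested. A replicate block by the number in the library name called 3417, 3855 and 1 genes under blockade, isotype and for the difference. In the 6 blockade libraries alone it called 3227. A block by the number in the title called 2347, 2830 and 1. With 3 libraries a group, gaps of weakly expressed genes are the least certain.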
